A study of Drosophila melanogaster with 2 samples.

Results

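Polycomb group genes were examined for binding of CG12769, with the polyhomeotic pair ph-p and ph-d described first. The 10 genes were ph-p, ph-d, Pc, Psc, Su(z)2 and Sce of Polycomb repressive complex 1 (PRC1), E(z), Su(z)12 and esc of Polycomb repressive complex 2 (PRC2), and pho, which encodes a DNA-binding protein. They are 10 of the 13945 protein-coding genes on the chromosome arms used and were chosen by symbol. The set was selected on ph-p, which holds one of the highest peak values of the data set, so the peak values of these genes are given as a description with no test. A peak counted for a gene when its summit lay inside the gene or within 2 kb of either end.

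The study mapped a tagged CG12769 protein in whole Drosophila melanogaster embryos by ChIP-seq, in which an antibody against GFP recovers the tagged protein with its DNA. All embryos came from a transgenic line that stably expresses CG12769 fused at its C-terminus to GFP, and males and females were pooled at 10 to 24 h of age. The samples form 1 group of 2 biological replicates (5 and 7), with no contrast between conditions; a control library was not analysed here. Whole embryos mix all cell types, so a peak cannot be assigned to any of them, and the labels do not give the promoter that drives the transgene. The lists of replicate 5, replicate 7 and the pool have 30000 peaks each. A further set, which the authors selected by how reproducible peak ranks are (the irreproducible discovery rate, IDR), consists of the 8574 highest pooled peaks. The value of a peak is the peak caller's own signal, whose scale the labels do not state, and it is compared here only within a list, by rank. Rank 1 is the strongest peak of a list. Read counts were not in these lists, so the depth behind each value is unknown.

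Polycomb group proteins keep developmental genes, among them the homeotic genes, silent through cell divisions. PRC2 methylates histone tails, and PRC1 binds this mark, ubiquitinates histones and compacts chromatin. In flies both complexes are brought to DNA elements by DNA-binding proteins such as Pho. The genes ph-p and ph-d are tandem copies that encode closely related PRC1 subunits, and Psc and Su(z)2 are a second pair of related neighbours.

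The sequences under the strongest summits of ph-p and ph-d are shown because the genes share long stretches of sequence and the strongest ph-p summit falls between those stretches. All 3 are from the dm6 reference genome (RefSeq), read 5′ to 3′ on the minus strand, along which both genes are transcribed. The first is X:2137199-2137497, around the strongest ph-p summit in a ph-p intron; capitals mark the 208 bp that have no aligned counterpart at ph-d. The second is X:2123438-2123633, around the strongest ph-d summit just upstream of that gene, and the last is the aligned stretch of ph-p, X:2137004-2137200. In these other two, capitals mark bases that differ from the other copy or are absent there.
ph-p strongest summit: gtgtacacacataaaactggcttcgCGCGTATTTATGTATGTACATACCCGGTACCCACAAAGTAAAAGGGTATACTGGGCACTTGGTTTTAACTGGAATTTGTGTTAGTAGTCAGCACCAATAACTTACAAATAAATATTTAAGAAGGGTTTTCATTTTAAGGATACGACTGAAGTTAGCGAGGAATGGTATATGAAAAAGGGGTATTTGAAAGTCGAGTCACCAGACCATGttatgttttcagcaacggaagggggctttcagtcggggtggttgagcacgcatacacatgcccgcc
ph-d strongest summit: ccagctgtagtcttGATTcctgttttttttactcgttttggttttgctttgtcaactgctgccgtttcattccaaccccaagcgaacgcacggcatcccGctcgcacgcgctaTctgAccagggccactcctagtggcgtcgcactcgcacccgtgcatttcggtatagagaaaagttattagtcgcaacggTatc
ph-p counterpart of the ph-d summit: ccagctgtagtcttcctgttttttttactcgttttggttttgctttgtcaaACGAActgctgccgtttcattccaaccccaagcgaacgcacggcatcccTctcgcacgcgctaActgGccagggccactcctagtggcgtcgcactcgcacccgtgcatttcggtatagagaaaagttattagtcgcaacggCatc
In the alignment of the second and last sequences, 4 columns were substituted and 9 gapped.

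The ph-p gene (FBgn0004861, X:2126210-2138371, minus strand) held the strongest peak of all 10 genes, in an intron near its upstream end. Its summit was at X:2137348, 1023 bp into the gene and 493 bp upstream of the nearest internal ph-p transcription start site (TSS). The value was 6273.9 in the pooled list, 2702.6 in replicate 5 and 3424.2 in replicate 7, which ranked 10, 12 and 8. Both replicates thus placed the peak close to the top of 30000, and their summits lay 18 bp apart. The peak interval was 1517 bp wide and held a further summit in the 5′ UTR at X:2137927, with a pooled value of 921.0 at rank 599. The replicates differed widely there: the summit had value 111.7 and stood at the top 17.8% of the list in replicate 5, and had value 904.4 and stood at the top 0.67% in replicate 7. The other ph-p summits of the IDR set were weaker. An intronic summit at X:2135337 had pooled value 745.0 and ranks 2078 and 639 in replicates 5 and 7. Replicate 5 had a further summit nearby at X:2135130, with value 221.5 at rank 1849, where replicate 7 had none of its own. Another intronic IDR summit, at X:2134418, had pooled value 452.1 and replicate ranks 1599 and 2905. A summit 266 bp upstream of the gene had 182.2, and the replicates differed there, with ranks 4875 and 14671. A summit between the genes, 521 bp past the ph-p end and 2403 bp upstream of ph-d, had 228.6. In all, ph-p had 6 IDR, 7 pooled, 8 replicate 5 and 8 replicate 7 summits.

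The ph-d gene (FBgn0004860, X:2115727-2123286, minus strand) had 2 IDR summits, both upstream of its TSS and in 1 peak interval of 957 bp. The stronger, 252 bp upstream at X:2123538, had value 1511.5 in the pooled list, 724.9 in replicate 5 and 822.0 in replicate 7, with ranks 217, 183 and 249. The replicates' summits were 27 bp apart, and the rank was below that of ph-p in all 3 lists. The other summit, 477 bp upstream, had pooled value 387.3 at rank 2721. Replicate 7 had a summit of its own at that place, with value 346.6 at rank 1357. Replicate 5 instead split the interval at X:2123511 and X:2124071, the latter with value 159.9. Inside ph-d, 2 pooled summits in the first intron, with values 139.8 and 65.9, were outside the IDR set. Over both genes and their flanks there were 8 IDR and 11 pooled summits, 3 of the IDR summits in the 2923 bp between the genes.

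**Figure D1:**
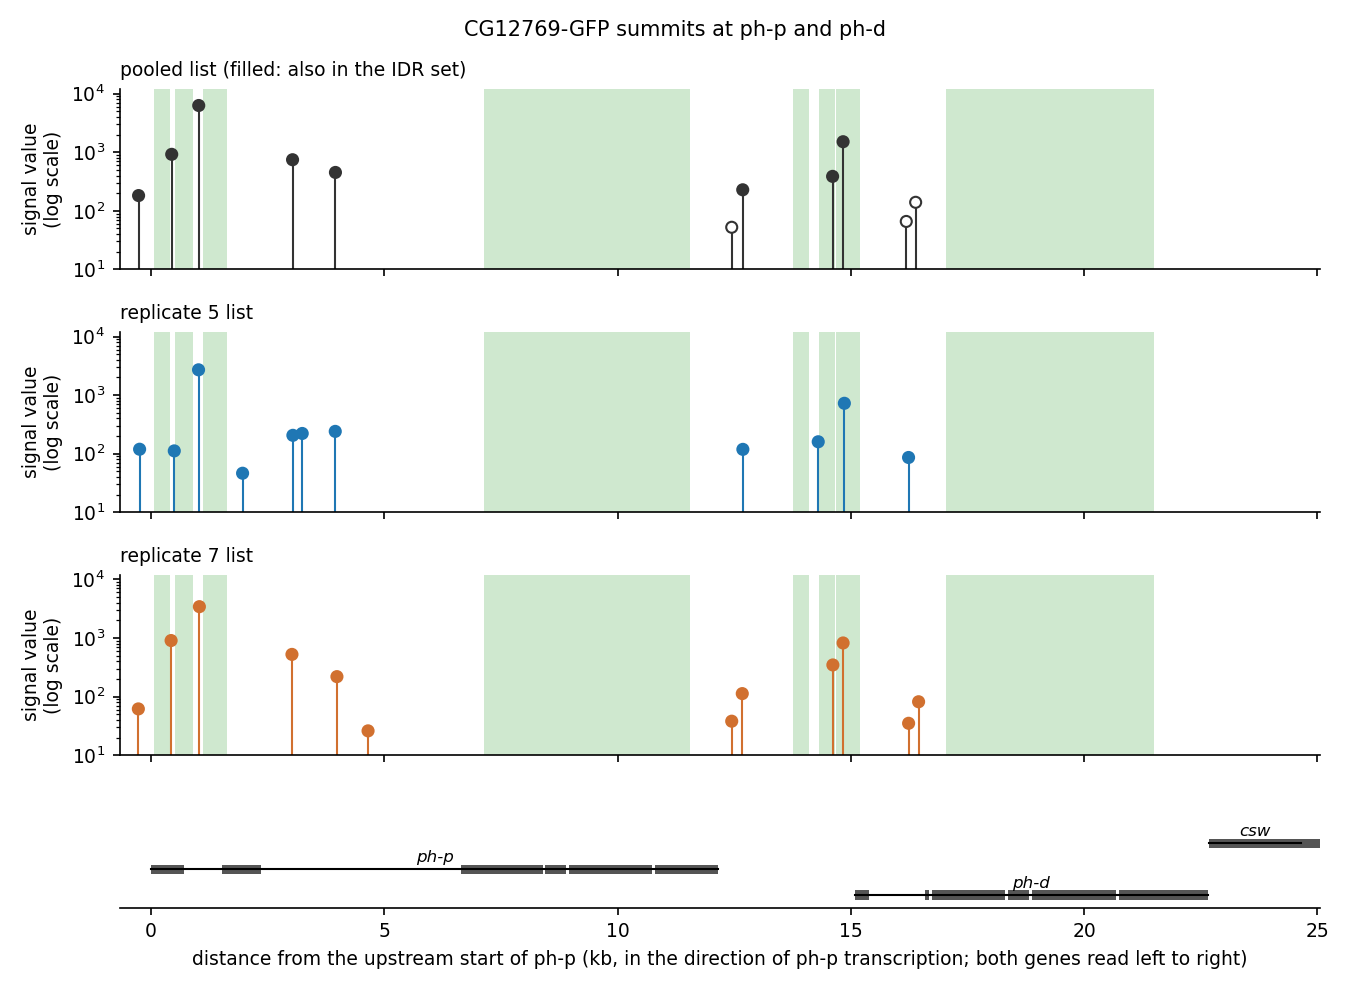
Summits at ph-p and ph-d in the pooled list and in the lists of replicates 5 and 7, as signal value (log scale) against distance from the upstream start of ph-p in kb; filled pooled points are also in the IDR set, green bands mark stretches of ph-p and ph-d that align to each other, and gene models are below. The tallest point in every list is the ph-p summit 1023 bp into the gene, between aligned bands, and the long aligned coding stretches hold no pooled summit.

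The longest aligned stretch of the copies held no peak. Over their coding parts, X:2126824-2131227 of ph-p matched ph-d at 92.0% identity across 4480 alignment columns, with no pooled summit in either copy. Upstream, X:2136747-2137264 of ph-p matched X:2123181-2123696 of ph-d at 90.7% identity across 529 columns. The strongest ph-d summit lay inside this block. Its counterpart in ph-p, X:2137104, lay within the ph-p peak interval, 244 bp from the strongest ph-p summit, with no summit of its own. The strongest ph-p summit was 84 bp past the end of the block, in the 208 bp absent from ph-d, and 88 and 70 bp past it in replicates 5 and 7. At ph-d only 15 bp separated the same blocks. The ph-p stretch had 37.5% G+C and 0 other matches in the genome (BLAST, E at most 1e-05). Both ph-d IDR summits, and 0 of the 6 ph-p ones, lay inside aligned blocks. The labels do not say how reads matching both copies were treated. The part of this treatment in the ph-d values, and in the lack of summits in the aligned stretches of ph-p and the coding parts, was not tested. The IDR peaks of the other genes, and the remaining ph-p peak intervals, had 0 other matches in the genome.

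Of the other PRC1 genes, Pc had the next strongest peak, but it lay beyond the 3′ end of Pc at the start of a neighbour. Pc (FBgn0003042, 3L:21306138-21318020, minus strand) encodes the chromodomain protein that binds the histone mark made by PRC2. The summit at 3L:21304572 was 1566 bp past the end of Pc and 86 bp inside CG11309, counted from the CG11309 TSS. Its value was 3368.1 in the pooled list, 1261.9 in replicate 5 and 2112.2 in replicate 7, with ranks 38, 61 and 28. The replicates' summits were 1 bp apart. At the Pc promoter itself, 88 bp upstream of the TSS, the values were far lower: 240.0 in the pooled list, 96.4 in replicate 5 and 137.6 in replicate 7, at ranks 5609, 6440 and 5961. Inside Pc there was no summit in any list, and annotated transposable elements covered 76.6% of the gene. Their part in this was not tested.

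Psc and Su(z)2 encode related RING finger proteins of PRC1 and lie head to head on arm 2R, with 14 IDR summits over both genes, their flanks and the stretch between them. Psc (FBgn0005624, 2R:12965997-12980994, minus strand) had 4 IDR summits, all inside the gene. The strongest, in an intron 5056 bp downstream of the TSS at 2R:12975602, had value 794.2 in the pooled list, 378.0 in replicate 5 and 414.6 in replicate 7, at ranks 782, 696 and 970. Its replicate summits were 11 bp apart. A second intronic summit had pooled value 442.1, and those in the 5′ UTR had 280.8 and 209.6. The weakest of these ranked 16788 in replicate 5 and 5554 in replicate 7, the widest gap in rank number at the IDR summits of Psc.

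Su(z)2 (FBgn0265623, 2R:12996501-13007911, plus strand) had 5 IDR summits and, with 10, the most pooled summits of the set; without replicate 7, among the 8574 strongest peaks of replicate 5, it had 3. The strongest, in the 5′ UTR 45 bp from the nearest Su(z)2 TSS at 2R:12997168, had value 993.0 in the pooled list, 447.1 in replicate 5 and 563.7 in replicate 7, at ranks 532, 487 and 548. The upstream TSS had a weaker summit 11 bp inside the gene, with pooled value 312.5. At the other end of the gene, a summit in the 3′ UTR had pooled value 260.0, one in an intron 207.4, and one 380 bp past the gene was the lowest, at rank 7035. The summits at the TSSs were therefore the higher ones, and those at the far end had pooled ranks of 5023 to 7035.

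In the pooled list and replicate 5, the strongest peak of the Psc and Su(z)2 locus belonged to neither gene by the 2 kb rule. It lay in the 15506 bp between them at 2R:12991007, 10013 bp upstream of Psc and 5494 bp upstream of Su(z)2. Its pooled value was 1431.5 at rank 246, and it ranked 204 in replicate 5 and 320 in replicate 7. In all, 5 IDR summits lay between the genes, the next highest with value 818.9 at 213 bp upstream of lncRNA:CR44339. That one ranked 256 in replicate 7, where it was the strongest peak of the locus, with value 817.9 against 743.4 for the peak at 2R:12991007. In replicate 5 the overlapping peak ranked 1967, but the same peak was matched to the neighbouring IDR summit of pooled value 391.6. Its summit lay beside that neighbour, so the rank does not belong to a replicate 5 summit at this place.

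**Figure D2:**
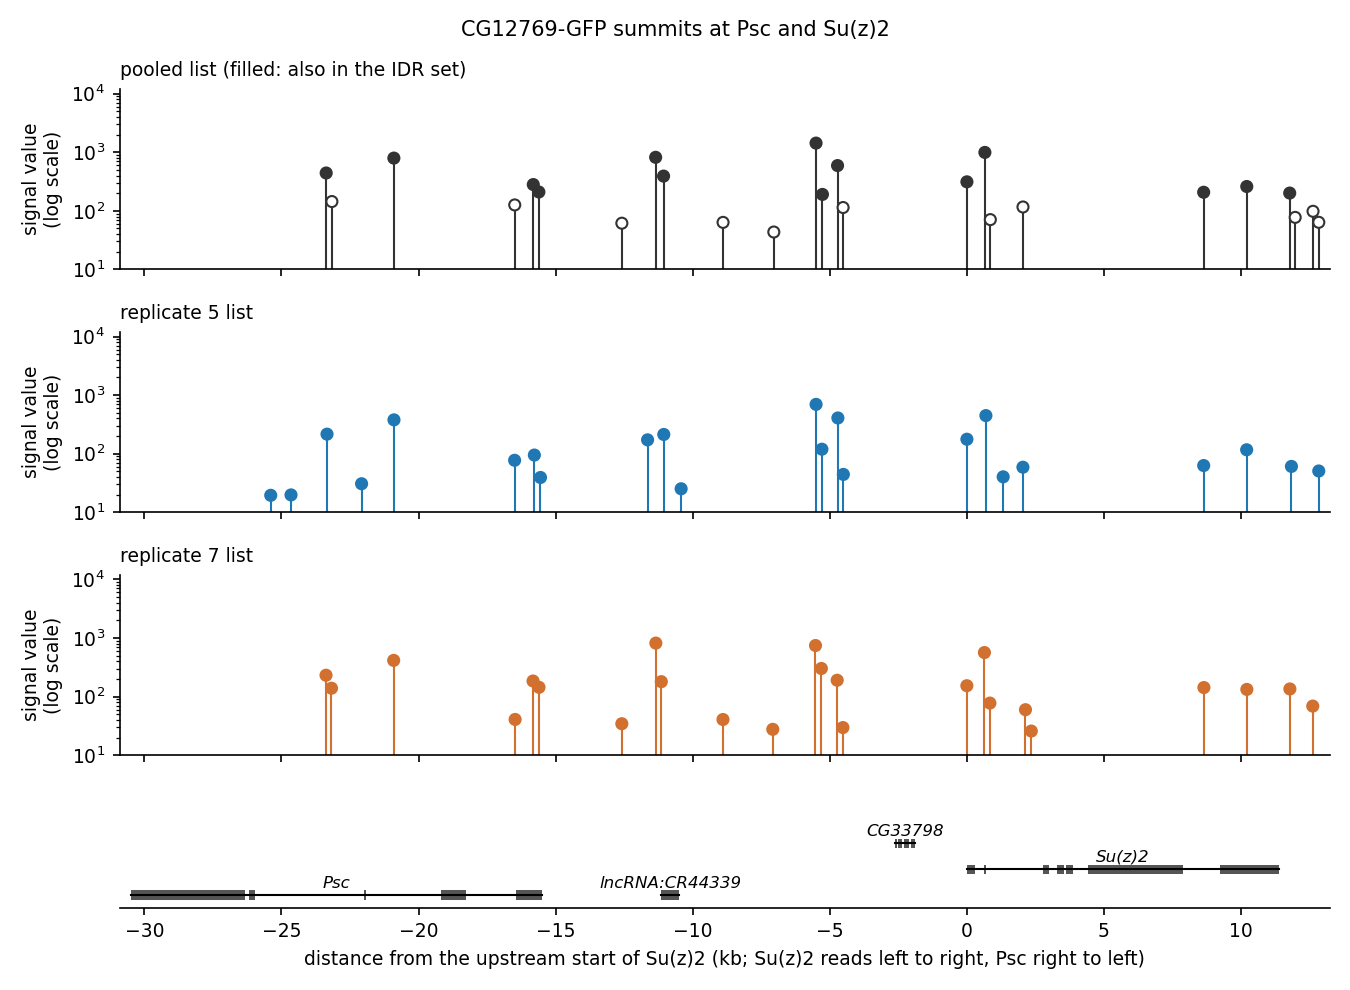
Summits at Psc and Su(z)2 in the pooled list and in the lists of replicates 5 and 7, as signal value (log scale) against distance from the upstream start of Su(z)2 in kb; filled pooled points are also in the IDR set and gene models are below. The tallest pooled point, value 1431.5, stands between the genes, 5494 bp upstream of Su(z)2.

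The remaining PRC1 gene of the set and its 3 PRC2 genes had no peak shared by the replicates. Sce (FBgn0003330, 3R:27680431-27682029), which encodes the histone ubiquitin ligase of PRC1, had 0 summits in all 4 lists, and the nearest IDR summit was 19791 bp away. E(z) (FBgn0000629, 3L:10634575-10638130), the histone methyltransferase of PRC2, had 0 in all 4 lists, with the nearest IDR summit at 8065 bp. The same held for esc (FBgn0000588, 2L:11827204-11829405), which encodes a WD-repeat subunit of PRC2 and whose nearest IDR summit was 10626 bp away. Other lists had summits nearer to esc but outside the 2 kb limit, at 2288 bp in replicate 7, 3162 bp in replicate 5 and 3611 bp in the pooled list. Su(z)12 (FBgn0020887, 3L:19918242-19923462), which encodes a zinc finger subunit of PRC2, had 3 summits in replicate 7 and 0 in replicate 5, the pooled list and the IDR set; 1 of the 3 was among the 8574 strongest peaks of replicate 7. The strongest of them had value 140.6 at rank 5766. It lay 141 bp upstream of the Su(z)12 TSS and 68 bp upstream of that of the neighbouring gene Pfdn6. The other 2, with values 88.3 and 30.3, were inside Grasp65.

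The DNA-binding member pho (FBgn0002521, 4:1172469-1181628) encodes a zinc finger protein that binds Polycomb response elements. It had 0 summits in all 4 lists; the nearest IDR summit was 25809 bp away and the nearest pooled summit 4577 bp. Annotated transposable elements covered 48.8% of pho.

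Counted together, 5 of the 10 genes had an IDR summit, against 37.4% of all protein-coding genes. All 5 were PRC1 genes, so PRC1 had 5 of 6, PRC2 0 of 3 and the DNA-binding group 0 of 1. The same 5 genes had a pooled summit, against 52.2% of protein-coding genes, and the same 5 a summit in replicate 5, against 55.7%. With Su(z)12 there were 6 in replicate 7, against 52.0%. A share of 10 genes close to these backgrounds says nothing particular about the set, and the split between complexes rests on 10 genes chosen with the values known.

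The genes with summits were long ones. The PRC1 genes with summits were 7560 to 14998 bp long, all in the quartile of the longest protein-coding genes, those of 4999 bp or more, of which 61.8% had an IDR summit. Su(z)12 and pho are in that quartile too and had none. Sce is in the quartile of 1180 to 2166 bp, where 28.2% had one, and E(z) and esc are in that of 2167 to 4998 bp, where 36.4% had one. For number of summits, ph-p with 6, Su(z)2 with 5 and Psc with 4 were above, and ph-d and Pc with 2 each just below, the mean of 2.09 in the quartile of the longest genes, in which 21.0% of genes had 4 or more. Per kb of gene and flanks, ph-p had 0.371 IDR summits, Su(z)2 0.324, Psc 0.211, ph-d 0.173 and Pc 0.126. Sce, E(z), Su(z)12, esc and pho had 0. The mean over protein-coding genes was 0.0812. It includes genes with no IDR summit, so it is not a like comparison for genes that have one.

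**Figure D3:**
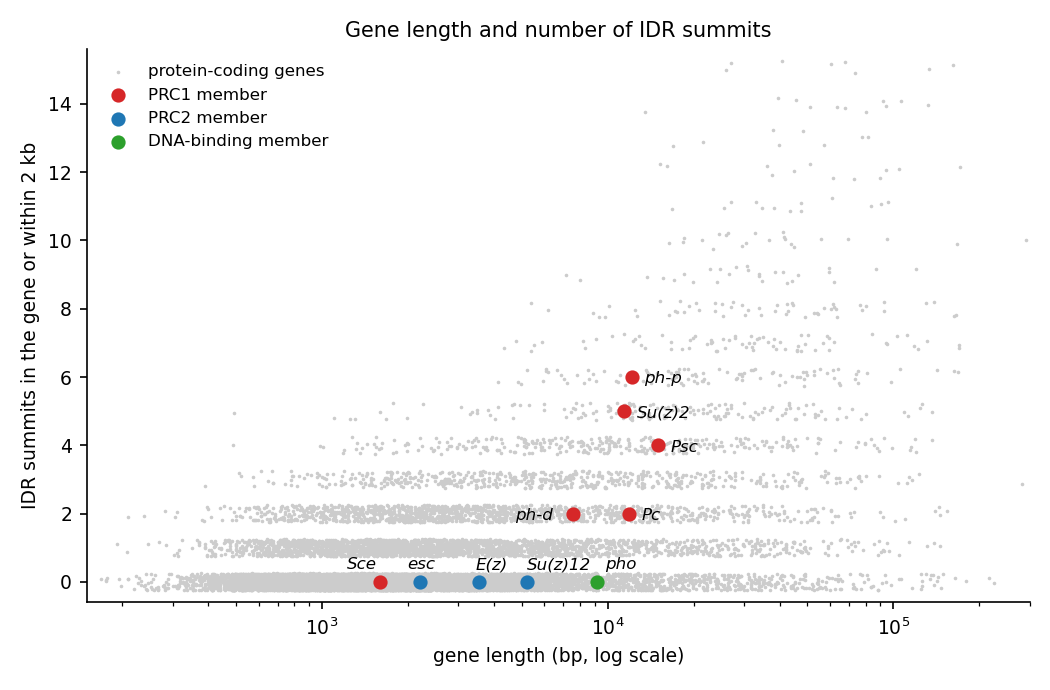
Number of IDR summits in the gene or within 2 kb against gene length in bp (log scale) for protein-coding genes (grey, jittered vertically; 23 genes with more than 15 summits and 6 longer than 300 kb are not drawn), with PRC1 genes in red, PRC2 genes in blue and pho in green. The PRC1 genes with summits have 2 to 6 of them at lengths of 7560 to 14998 bp, while Sce, the PRC2 genes and pho lie at 0.

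Of the 19 IDR summits at these genes, 6 were in introns, 5 in 5′ UTRs, 4 upstream, 3 downstream and 1 in a 3′ UTR, and 0 were in coding exons. The strongest pooled peak lay within 500 bp of one of the gene's own TSSs for ph-p, ph-d and Su(z)2, or 3 of the 5 genes with a peak. Among all protein-coding genes with a pooled peak it did so for 35.5%, 2581 of 7275. For Pc the strongest peak was at another gene, and for Psc it was in an intron. The 2 kb limit decided the place of Pc: its strongest summit was the farthest inside the limit at 1566 bp, and the next outside was at 3992 bp with value 283.3. The first summits outside the limit were 2447 bp away for ph-p (value 387.3), 2403 bp for ph-d (228.6), 4160 bp for Psc (818.9) and 4709 bp for Su(z)2 (592.1). Each of the first pair was already counted for the other copy.

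The replicates found the same order of strongest peaks: ph-p, Pc, ph-d, Su(z)2 and Psc. The ranges of replicate ranks did not overlap between neighbours in this order, from 8 and 12 for ph-p to 970 and 696 for Psc in replicates 7 and 5. By strongest peak, ph-p was 19th among protein-coding genes in the pooled list, Pc 73rd, ph-d 359th, Su(z)2 775th and Psc 1060th. All 19 IDR summits were overlapped by a peak of both replicates, against 97.5% of all IDR peaks, a share that the selection of the IDR set largely fixes. So were all 30 pooled summits (100%, exact Clopper-Pearson 95% interval 88.4 to 100%), against 79.2% of all pooled peaks. That interval treats the 30 as independent, and they were not. Several neighbouring pooled summits were matched to the same replicate peak, for instance X:2125689 and X:2125925 to X:2125686 in replicate 5. No difference from all pooled peaks is read from that interval. Of the 30 replicate 5 peaks at these genes, 25 overlapped a replicate 7 peak, which is 83.3% (65.3 to 94.4%) against 77.3% of all replicate 5 peaks. Of the 33 replicate 7 peaks, 29 overlapped a replicate 5 peak, which is 87.9% (71.8 to 96.6%) against 80.7%. For the replicate 5 and replicate 7 peaks the intervals contain the shares of all peaks. All these intervals cover counting error only.

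The peaks found in 1 replicate ranged in rank from 5766 to 29638 within their lists of 30000, so they were not all weak. Those of replicate 5 were 1 at ph-p with value 46.4, 3 at Psc with 19.5, 19.8 and 30.7, and 1 at Su(z)2 with 40.3. Those of replicate 7 were 1 at ph-p with 26.0 and the 3 at Su(z)12 with 140.6, 88.3 and 30.3. Over the 25 overlapping pairs at these genes the replicate values had a Spearman rho of 0.783, against 0.708 over all 23202 pairs. Over the 19 IDR summits at these genes rho was 0.688. These values describe peaks of the same libraries, several of them in shared intervals, and not independent samples. The summits of a pair lay a median of 31 bp apart, against 41 bp over all pairs, and at most 314 bp.

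**Figure D4:**
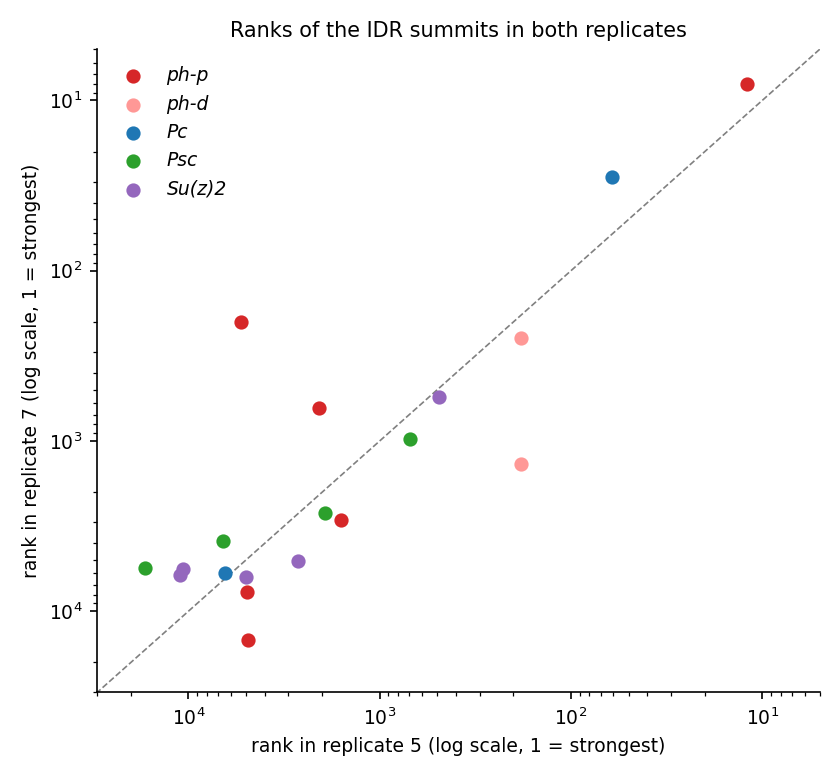
Rank in replicate 7 (vertical axis) against rank in replicate 5 (horizontal axis), both on log scales with the strongest at the top right, for the 19 IDR summits at ph-p, ph-d, Pc, Psc and Su(z)2, with the line of equal rank dashed. The strongest ph-p and Pc peaks lie near the line at the top, and the ph-p 5′ UTR summit, at the top 17.8% of the replicate 5 list and the top 0.67% of the replicate 7 list, lies far above it. Each point takes its ranks from the overlapping replicate peaks. The weaker ph-d summit, X:2123763, is drawn at replicate 5 rank 183, that of the summit at X:2123511, 252 bp away, which also matches the stronger ph-d summit.

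Short motifs were read in windows reaching 100 bp to each side of a summit, on both strands, with overlapping matches counted. GAGAG, bound by GAGA factor, was in 6 of the 19 windows (31.6%) against 32.4% of all 8574 IDR windows. All 6 were around weaker summits, with ranks of 3822 to 7901, at ph-p, Psc and Su(z)2. None of the strongest summits of the 5 genes had it. GCCAT, the core of the Pho site, was in 3 windows (15.8%) against 32.5%, and CGATA, the core of the DRE and BEAF sites, was in 6 (31.6%) against 26.8%. GTGTG was in 7 (36.8%) against 43.6%. Of the E-boxes, CAGCTG was in 2 (10.5%) against 10.6% and CACGTG in 0 against 2.62%. The windows of the strongest ph-p and Pc summits held none of the 6 motifs; their G+C contents were 37.3% and 29.4%, against a median of 44.3% over all IDR windows. The absence of these letters from a window says nothing about the factors.

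Among 32 further genes of the Polycomb and Trithorax groups, 19 had an IDR summit, against 37.4% of all protein-coding genes and 61.8% of those in the quartile of the longest genes. Their median number of summits was 1 and their median length 7560 bp. The 10 genes above had a median of 1 summit and a median length of 8360 bp, and all protein-coding genes had a median of 0 and 2166 bp. In the PRC1 and Polycomb accessory list, 2 of 7 had one. The strongest peaks there were at phol, a relative of pho (2135.3, rank 103, 109 bp upstream of the nearest TSS, that of CG3552), and in a coding exon of the histone demethylase gene Kdm2 (1811.6, rank 145). In the PRC2 accessory list, 3 of 5 had one: Caf1-55, a histone-binding subunit (4374.9, rank 23, 122 bp upstream of Art3), Pcl (1683.3, rank 177, 547 bp inside pAbp) and jing, a zinc finger gene (636.7, rank 1203, nearest to lncRNA:CR46075). The peaks counted for phol, Caf1-55, Pcl and jing were thus closest to the TSS of another gene.

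Of the DNA-binding recruiters, 6 of 8 had an IDR summit, led by psq in its own intron (3409.1, rank 36), Trl, which encodes GAGA factor, also in an intron (1375.1, rank 276), and Dsp1, an HMG box gene (960.8, rank 563, 579 bp inside CG9921). Of the Trithorax group, which counteracts Polycomb silencing, 8 of 12 had one. The highest was counted for the histone methyltransferase gene ash1 (7181.6, rank 5) but lay 85 bp upstream of CG14100. It was followed by osa, a subunit gene of a chromatin remodelling complex (2039.5, rank 111, nearest to lncRNA:CR46035), and by the histone methyltransferase gene trx in an intron (1873.9, rank 140).

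The genes whose strongest peak ranked most like that of ph-p in both replicates were Lk6, CG3277, CG9663 and CG14100. Likeness was the sum of the absolute differences in log10 rank in replicates 5 and 7, over protein-coding genes more than 20 kb from any of the 10. For Lk6, a kinase gene, the sum was 0.10, with pooled, replicate 5 and replicate 7 ranks of 9, 11 and 7 and a pooled value of 6397.2. CG3277 and CG9663 share 1 peak (6537.7, ranks 8, 6 and 9) with a sum of 0.35, and CG14100 has the peak also counted for ash1 (ranks 5, 14 and 4) with a sum of 0.37. Of these genes, Lk6 had 4 IDR summits, CG3277 3, CG9663 5 and CG14100 1, beside 6 at ph-p.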

How the data were processed

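CG12769-GFP ChIP-seq peaks of whole embryos were analysed from 4 deposited peak lists on dm6, per the labels: replicate 5, replicate 7, their pool and the IDR set. The deposited signal value of each peak and its −log10 q-value are the authors' peak caller's own. In the IDR set the −log10 q-value was 4.04 at 13 of the 19 member summits and lower at the rest, so ranks used the signal. The aligner, the peak caller, their settings and how reads matching several places were handled are not stated in the labels or notes. The notes deposited with the lists name signal tracks of unique reads, but not which reads the peaks used.

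Coordinates are 1-based and as deposited. Genes came from Ensembl release 115 (BDGP6.54), on 6 arms, with 0 peak ends beyond a chromosome. Each summit was counted for every gene within 2 kb, a rule tested on simulated data. Sequences were aligned with BLAST 2.17.0, and counts used Python 3.11.15, pandas 2.3.3, numpy 2.4.6 and scipy 1.17.1. No read counts were available, so depth gives no error. The members and lists were chosen with earlier results of these data known. Named genes are the 10 members, up to 3 genes per further list with the highest IDR value, the 4 most like ph-p, and genes with the TSS nearest to a named summit. One further gene, calypso, was matched by synonym. Alternatives were other lists, distances, overlap rules and window lengths, and each replicate alone.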

Additional observations from a re-analysis of the deposited data

How the results depend on the processing

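Without one replicate, taking the strongest 8574 peaks of the other, 5 to 6 members had a summit, with 19 to 20 summits in all (Su(z)12 gained 1 without replicate 5, and Su(z)2 fell from 5 to 3 without replicate 7), and 19 to 21 further genes did. Whole lists of single replicates gave 30 to 33 summits, and strongest peaks within 500 bp of an own TSS were 3 to 4. The 19 IDR summits became 8 among the 2143 strongest IDR peaks, 30 in the pooled list and 12 when the summit had to be inside the gene. Among those 2143 peaks the same 5 members kept a summit, as did 18 of the 32 further genes, against 16.6% of protein-coding genes. The members were selected with peak values known, so this gap was not tested. The 16.6% is a share of genes of all lengths, whose median length was 2166 bp. Median length was 8360 bp for the members and 7560 bp for the further genes. Members with a summit fell from 5 to 3 inside the gene (ph-p, Psc and Su(z)2), where the background, again over genes of all lengths, was 17.8%. Pooled summits, 30 at 2 kb, were 18 inside the gene and 53 within 5 kb. The share of replicate 7 peaks found in replicate 5 fell from 87.9% to 66.7% both when 50% of each peak had to overlap and when summits had to lie within 100 bp. Strongest peaks at an own TSS fell from 3 to 1, Su(z)2, at 200 bp. Counting a summit only for its nearest TSS left Pc with 1 summit. With windows of 200 bp to each side, GAGAG was in 63.2% of member windows (52.2% of all IDR windows) and CAGCTG in 36.8% (20.9%). With windows shorter than 100 bp to each side, the member shares were instead below those of all IDR windows. CAGCTG was then in 0% of member windows (5.27% of all IDR windows) and CGATA in 10.5% (14.5%). At 100 bp to each side, CAGCTG was in 10.5% (10.6%) and CGATA in 31.6% (26.8%). The cause of these shifts was not tested. No paired analysis was possible because there is 1 group and no contrast between conditions.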
